A study of Mus musculus with 6 samples.

Results

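The genes described here are 10 that handle arginine and the polyamines in mouse bone marrow-derived macrophages: the arginases Arg1 and Arg2, the inducible nitric oxide synthase Nos2, argininosuccinate synthase Ass1, the polyamine enzymes Odc1, Amd1, Srm, Sms and Sat1, and the antizyme inhibitor Azin1. They were picked by gene name from the 57180 genes of the deposited table, and all 10 were found once and passed the filter on low counts that left 13260 genes for testing. RNA was sequenced from macrophages grown for 7 days in M-CSF (20 ng/mL) from marrow of wild-type mice aged 6 to 8 weeks. One group of 3 libraries came from cells given IL-4 at 20 ng/mL for 24 h, a cytokine that drives alternative activation. The other 3 came from cells given IL-4 together with CGRP, a neuropeptide of sensory nerves, for the same time (IL-4+CGRP). Neither untreated cells nor cells given CGRP alone were sequenced, so all values are from cells that had received IL-4, and the labels leave the CGRP concentration open to more than one reading. The labels do not tell whether replicates are separate animals or cultures, and the p-values therefore measure a spread between libraries that may be technical.

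Macrophages take up arginine and can split it in either of 2 main ways. Arginase cuts it into urea and ornithine, and Odc1 turns ornithine into putrescine, which Srm and Sms extend to spermidine and spermine with aminopropyl groups supplied through Amd1. Nos2 instead makes nitric oxide and citrulline, and Ass1 starts the return of citrulline to arginine. Sat1 acetylates spermidine and spermine for breakdown or export. Arg1 and Nos2 are the classic pair by which alternatively and classically activated mouse macrophages are told apart.

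Both arginases were higher in cells given IL-4 and CGRP, and none of the other 8 genes passed the test. Of the 10 genes, 2 rose (Arg1 and Arg2) and 0 fell by the edgeR quasi-likelihood test with an adjusted p below 0.05, where 2.32% of all 13260 tested genes were higher and 1.54% were lower. At an unadjusted p below 0.05, 6 of the 10 passed, against 15.8% of all tested genes. The groups did not overlap in 6 of the 10, against 21.0% of all tested genes. The 10 genes were chosen with earlier results of these data known, so these comparisons are not a test of the list. The median log2 fold change of the 10 was -0.03.

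**Figure D1:**
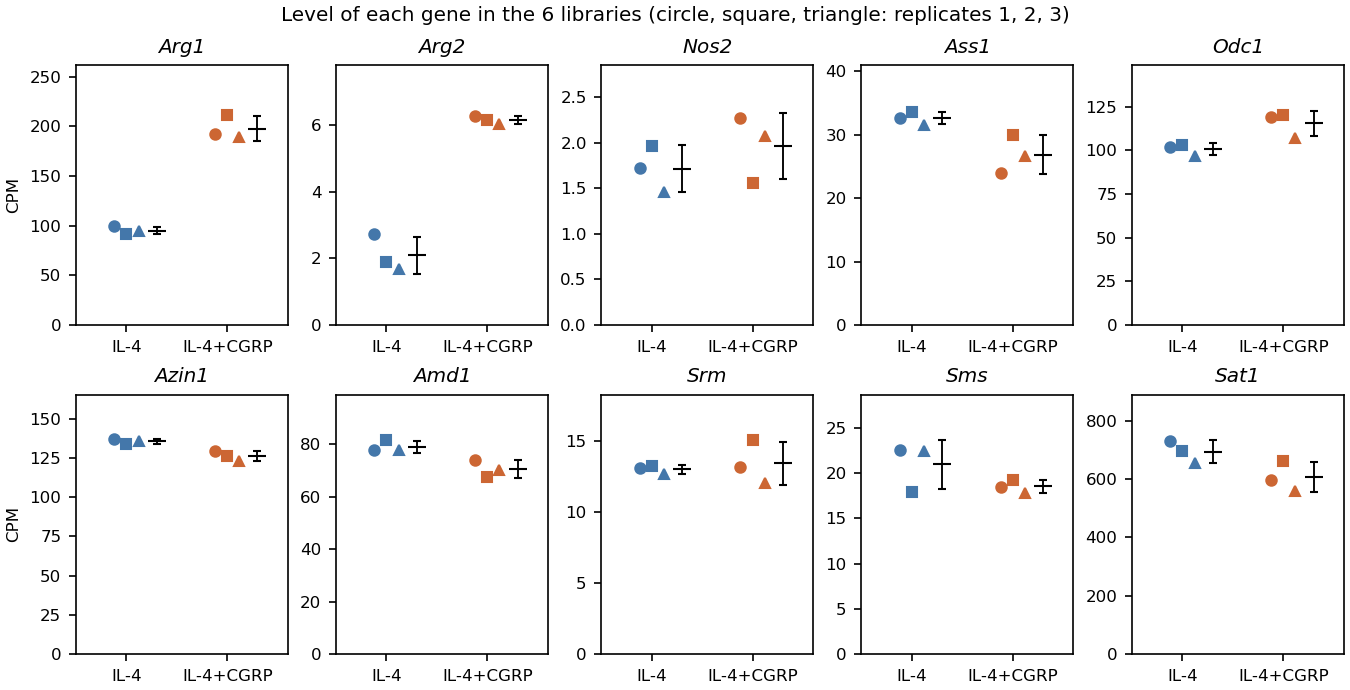
Level of each of the 10 genes in CPM (vertical axes from 0) in the 3 IL-4 libraries (blue) and the 3 IL-4+CGRP libraries (orange), with the mean and SD of each group beside the points. Arg1 and Arg2 stand clearly apart between the groups, from 95.02 to 198 CPM and from 2.09 to 6.15 CPM on average, while the groups of Nos2, Srm, Sms and Sat1 overlap.

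Arg1 (ENSMUSG00000019987) encodes the cytosolic arginase that IL-4 induces in mouse macrophages. It measured 99.2, 91.5 and 94.4 CPM (counts of the gene over the scaled library total) in replicates 1 to 3 given IL-4 alone, and 192, 212 and 189 CPM in replicates 1 to 3 given both agents. Every IL-4+CGRP library was well above every IL-4 library. The means were 95.02 ± 3.92 and 198 ± 12.6 CPM (SD, n = 3), a log2 fold change of 1.06 ± 0.06 (SE) or 2.08-fold, with an edgeR adjusted p = 2.7e-06.

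Arg2 (ENSMUSG00000021125) encodes the mitochondrial arginase. It measured 2.73, 1.88 and 1.67 CPM with IL-4 alone and 6.27, 6.15 and 6.04 CPM with IL-4 and CGRP. IL-4 replicate 1 was the highest of its group but stayed below all libraries given CGRP, which lay close together. The log2 fold change was 1.57 ± 0.18 (SE), or 2.96-fold, with an edgeR adjusted p = 0.00051. These levels rest on 40 to 54 counts per IL-4 library and 134 to 152 per IL-4+CGRP library.

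The exons of Arg2 overlap those of another gene. On the opposite strand, Vti1b, which encodes a SNARE protein of vesicle fusion, shares 285 exon bases with Arg2 in the GENCODE M21 annotation and had 8550 counts over the 6 libraries against 554 for Arg2. No source used here states whether counting used strand, so Arg2 and Vti1b reads of the shared stretch cannot be told apart. Vti1b itself measured 67.1 ± 1.83 and 61.5 ± 5.35 CPM (SD, n = 3) and did not pass the test. Its log2 fold change was -0.13 ± 0.07 (SE), with an edgeR adjusted p = 0.40. The part of Vti1b reads in the Arg2 values was not tested.

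Arg1 supplied nearly all arginase counts in both groups. Arg2 made up 2.68%, 2.01% and 1.74% of the summed Arg1 and Arg2 counts with IL-4 alone, and 3.16%, 2.82% and 3.09% with both agents. The shares of the groups did not overlap, with the IL-4+CGRP libraries higher. The log2 ratio of Arg2 to Arg1 counts, which does not depend on how libraries are scaled, was -5.54 ± 0.33 and -5.01 ± 0.09 (SD, n = 3), a difference of 0.53. The exact permutation test (two-sided) gave p = 0.1 (0.15 adjusted over the 3 ratios tested), and 0.1 is the smallest p that this test can give with 3 libraries against 3. IL-4 replicate 1 held the highest ratio of its group.

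Nos2 (ENSMUSG00000020826), the inducible nitric oxide synthase, was at a low level and did not pass the test. It measured 1.72, 1.97 and 1.46 CPM with IL-4 alone and 2.27, 1.56 and 2.07 CPM with IL-4 and CGRP, and the groups overlapped. Its log2 fold change was 0.20 ± 0.24 (SE), with an edgeR adjusted p = 0.73. With 34 to 55 counts per library, its SE was the largest of the 10 genes and exceeded its log2 fold change. A small change could therefore have been missed. For each Nos2 count there were 59.3, 47.4 and 65.8 arginase counts (Arg1 and Arg2 together) with IL-4 alone and 87.3, 140.0 and 94.3 with both agents. The lowest ratio with CGRP was above the highest without it, and these are ratios of counts, not adjusted for gene length. Nearly all of these arginase counts are from Arg1, so the ratio is not separate evidence from the Arg1 change.

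Ass1 (ENSMUSG00000076441), which joins citrulline to aspartate in the remaking of arginine, was lower in every IL-4+CGRP library without passing the test. It measured 32.7, 33.6 and 31.6 CPM with IL-4 alone and 23.9, 29.98 and 26.7 CPM with IL-4 and CGRP. The groups did not overlap, and IL-4+CGRP replicate 2 lay nearest to the IL-4 libraries. The log2 fold change was -0.28 ± 0.09 (SE; edgeR adjusted p = 0.11). Without IL-4+CGRP replicate 2 it was -0.37 and Ass1 passed as lower (edgeR adjusted p = 0.0031; alternatives gave 0.0011 to 0.38), in a fit that called 7.04% of all tested genes lower.

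Odc1 (ENSMUSG00000011179), the rate-limiting enzyme of polyamine synthesis, was higher in every IL-4+CGRP library but did not pass the test. It measured 102, 103 and 96.6 CPM with IL-4 alone and 119, 120.0 and 107 CPM with IL-4 and CGRP. The groups did not overlap, and the gap between the lowest IL-4+CGRP and the highest IL-4 library was narrower than the range within either group. The log2 fold change was 0.20 ± 0.06 (SE), or 1.15-fold, with an edgeR adjusted p = 0.12. Azin1 (ENSMUSG00000037458) encodes an inactive relative of Odc1 that binds antizyme and so spares Odc1 from breakdown. Its levels were 137, 134 and 136 CPM with IL-4 and 129.7, 126 and 123 CPM with IL-4+CGRP, lower in each library given CGRP, with a log2 fold change of -0.10 ± 0.05 (SE; edgeR adjusted p = 0.35).

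Sat1 (ENSMUSG00000025283), the acetyltransferase that starts polyamine breakdown, was the most abundant of the 10 and did not pass the test. It measured 732, 696 and 655 CPM with IL-4 alone and 597, 663 and 561 CPM with IL-4 and CGRP. The groups overlapped through IL-4+CGRP replicate 2, which was above IL-4 replicate 3. The log2 fold change was -0.19 ± 0.06 (SE; edgeR adjusted p = 0.15). Without IL-4+CGRP replicate 2 it was -0.26, and Sat1 passed as lower (edgeR adjusted p = 0.0018; alternatives gave 0.00013 to 0.44). That fit called 7.04% of all tested genes lower.

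Set against each other within a library, Odc1 and Sat1 counts gave ratios that did not overlap between the groups. This ratio combines the Odc1 and Sat1 changes above, neither past the test, so it is not separate evidence from them. The ratio of Odc1 to Sat1 counts was 0.139, 0.149 and 0.148 with IL-4 alone and 0.200, 0.181 and 0.190 with both agents. All 3 libraries given CGRP were above all 3 without it. The log2 ratio was -2.78 ± 0.05 and -2.39 ± 0.07 (SD, n = 3), a difference of 0.39 or 1.31-fold (exact permutation test, two-sided, p = 0.1, the smallest this test can give, and 0.15 adjusted over the 3 ratios). The ratio of Azin1 to the antizyme gene Oaz1, whose product drives Odc1 to the proteasome, was 1.10, 1.23 and 1.27 with IL-4 alone and 1.28, 1.02 and 1.24 with both agents. These overlapped, with a difference of -0.03 in the log2 ratio (exact permutation test, two-sided, p = 0.9, and 0.9 adjusted over the 3 ratios), and the sign turned without IL-4 replicate 3 (0.01) or IL-4+CGRP replicate 2 (0.07).

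**Figure D2:**
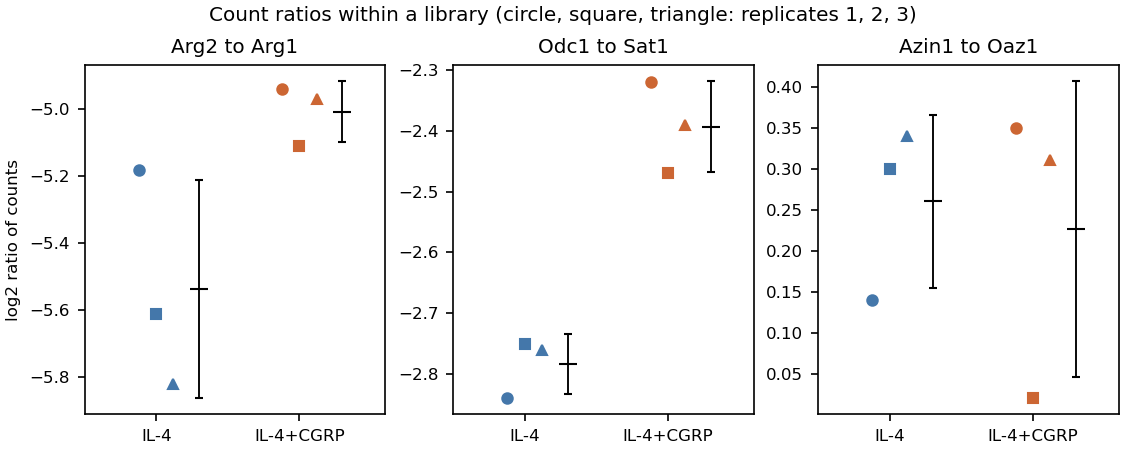
Log2 ratio of the counts of 2 genes in each library, for Arg2 to Arg1, Odc1 to Sat1 and Azin1 to Oaz1, with the mean and SD of 3 libraries beside the points (each panel has its own axis, which does not start at 0). The groups do not overlap for the first 2 ratios, which differ by 0.53 and 0.39, and overlap for the last.

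The 3 remaining polyamine enzymes did not pass the test. Amd1 (ENSMUSG00000075232), S-adenosylmethionine decarboxylase, measured 77.9, 81.8 and 77.8 CPM with IL-4 and 74.1, 67.6 and 70.1 CPM with IL-4+CGRP. Its groups did not overlap, with a log2 fold change of -0.17 ± 0.06 (SE; edgeR adjusted p = 0.15). The spermidine synthase gene Srm (ENSMUSG00000006442) measured 13.1, 13.3 and 12.7 CPM with IL-4 and 13.2, 15.1 and 12.1 CPM with IL-4+CGRP, and the groups overlapped (log2 fold change 0.05 ± 0.10, SE; edgeR adjusted p = 0.86). The direction for Srm turned without IL-4+CGRP replicate 2, to -0.04. The spermine synthase gene Sms (ENSMUSG00000071708) measured 22.6, 17.9 and 22.4 CPM with IL-4 and 18.5, 19.3 and 17.8 CPM with IL-4+CGRP, also with overlap (log2 fold change -0.18 ± 0.10, SE; edgeR adjusted p = 0.43).

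Several of these genes have near-identical copies, between which the authors' counting could split reads. Sms-ps, a processed pseudogene identical to Sms over 1101 bases, held 1217 counts over the 6 libraries against 2629 for Sms itself. Sms-ps had a log2 fold change of -0.46 ± 0.12 (SE; edgeR adjusted p = 0.073), and when counts of each gene were summed with those of its copies on the same strand the log2 fold change of Sms was -0.27 (edgeR adjusted p = 0.099; alternatives gave 0.099 to 0.74). The level of Sms is therefore uncertain. Amd2, which matches Amd1 at 99.6% of 3202 bases, held 28 counts in all against 9971 for Amd1, too few to be tested. The copies of Odc1, Sat1 and Ass1 on the same strand held few counts: 51 was the highest for Odc1, and those of Sat1 and Ass1 were all at 0. On the opposite strand, AW146154 matches Odc1 at 95.2% of 500 bases and held 683 counts against 14414 for Odc1. The log2 fold change of AW146154 was -0.16 ± 0.16 (SE), with an edgeR adjusted p = 0.68. The antizyme partner Oaz1 shares 685 bases at 99.3% identity with Oaz1-ps, which held 7166 counts against 14743. With those summed, the log2 ratio of Azin1 to Oaz1 differed by -0.01 (exact permutation test, two-sided, p = 0.8).

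Compared per kilobase of gene length, the 10 genes spanned most of the range of the tested genes. Sat1 stood at 775 ± 43.3 CPM per kilobase with IL-4 and 678 ± 57.6 with IL-4+CGRP (SD, n = 3), above 99.6% of tested genes over all 6 libraries. Arg1 came next, at 64.3 ± 2.65 and 134 ± 8.53 CPM per kilobase. Then followed Odc1, Azin1, Amd1, Ass1, Srm and Sms, from 45.6 down to 5.64 CPM per kilobase with IL-4. Arg2 was ninth, at 1.47 ± 0.395 and 4.31 ± 0.0824, and Nos2 last, at 0.410 ± 0.061 and 0.469 ± 0.0872 CPM per kilobase, above 10.2% of tested genes. The order was the same in both groups, and in neither did neighbours in it overlap between libraries. The neighbours closest in ratio were Azin1 and Amd1 with IL-4 alone, where the lowest Azin1 library (27.6) was above the highest Amd1 library (25.5 CPM per kilobase).

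**Figure D3:**
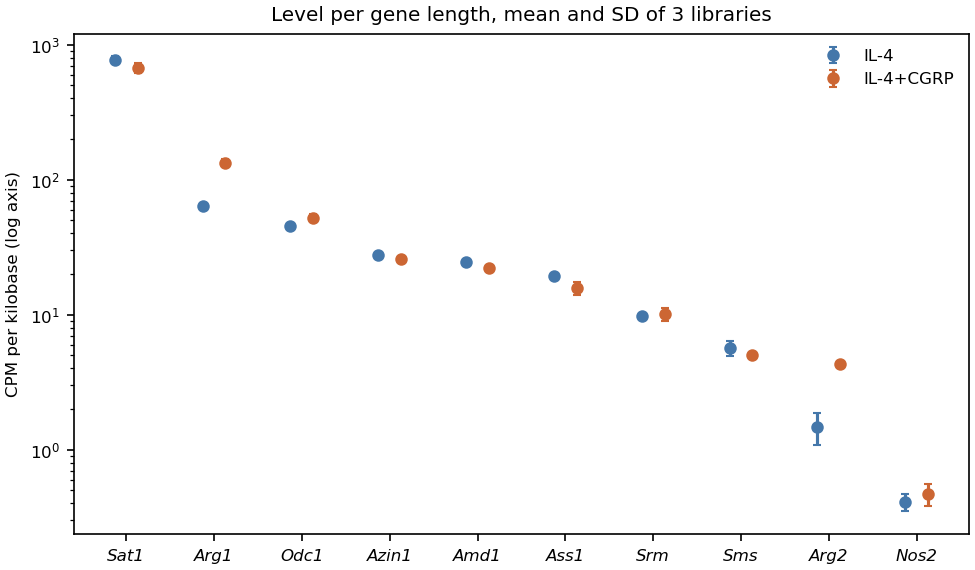
Mean level per kilobase of gene length (log axis) with the SD of 3 libraries, for the 10 genes in order of their level with IL-4 alone; blue is IL-4 and orange IL-4+CGRP. The order runs from Sat1 to Nos2 in both groups, and the largest gaps between the groups are at Arg1 and Arg2.

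Promoter sequences were available for 5 of the 10 genes (Odc1, Sms, Sat1, Amd1 and Ass1; 6 windows, each from 250 bases before to 50 after a RefSeq start, build GRCm38.p6), and not used here for Arg1, Arg2, Nos2, Srm and Azin1. The windows were searched on both strands for motifs of factors that act downstream of cyclic AMP, which the CGRP receptor raises, and of IL-4. Apart from these, they were searched for the E-box. The full cAMP response element TGACGTCA was in 0 of the 6 windows and in 1.79% of all 32851 promoter windows. Its half-site TGACG, which lies within the full element, was in those of Odc1 and Amd1 and in 20.8% of all windows. The STAT6 motif, TTC and GAA with any 4 bases between them, was in 0 of the 6 and in 6.95% of all windows. The E-box CACGTG, a site of MYC and related factors, was in the window of Ass1, in 1 of the 2 windows of Sms and in 7.15% of all windows. The last 100 bases before the start are printed for the genes with a motif there, with the motif in capitals; that of Amd1 is on the opposite strand.
Odc1, chr12:17544773-17544872, plus strand: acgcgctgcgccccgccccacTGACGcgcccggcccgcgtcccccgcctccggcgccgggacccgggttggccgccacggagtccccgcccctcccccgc
Amd1, chr10:40302189-40302288, minus strand: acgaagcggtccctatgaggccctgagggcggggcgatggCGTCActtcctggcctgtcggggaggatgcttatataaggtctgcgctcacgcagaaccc
Ass1, chr2:31470170-31470269, plus strand: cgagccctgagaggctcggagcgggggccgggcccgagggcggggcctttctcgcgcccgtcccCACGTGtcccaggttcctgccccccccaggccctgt
The half-site begins 79 bases before the start of Odc1 and 60 before that of Amd1, and these genes had log2 fold changes of opposite sign, 0.20 and -0.17, neither past the test. A match describes these letters only and is not a measured binding site.

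Around the 10 genes, 84 others of arginine and polyamine metabolism were listed, also with earlier results of these data known. Of these, 83 were in the table and 53 were tested. Of the 53, 3 rose and 2 fell by the edgeR test, where 2.32% of all tested genes were higher and 1.54% lower, and their median log2 fold change was -0.06. In arginine and ornithine transport 1 of 9 tested genes rose and 0 fell. This was Slc66a1, which exports cationic amino acids from lysosomes and went from 45.4, 46.6 and 43.6 to 54.3, 52.6 and 52.6 CPM (1.18-fold, edgeR adjusted p = 0.045; alternatives gave 0.0033 to 0.24). Slc66a1 no longer passed when any 1 library but IL-4+CGRP replicate 2 was left out, nor by DESeq2 or limma-voom.

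Of 7 tested genes of the urea cycle and other arginine enzymes, 1 rose, 1 fell and 5 did not pass. Among all tested genes 2.32% were higher and 1.54% lower. Gatm, the arginine:glycine amidinotransferase that begins creatine synthesis, fell from 472, 489 and 479 CPM with IL-4 alone to 364, 343 and 350.5 CPM with IL-4 and CGRP. Those groups were far apart beside their spread. The log2 fold change was -0.45 ± 0.04 (SE), 1.36-fold lower, with an edgeR adjusted p = 0.00016. Ddah2, a relative of the hydrolase that removes methylated arginines, which inhibit nitric oxide synthases, rose from 1.47, 1.08 and 0.959 to 2.68, 2.11 and 2.66 CPM. That is 2.14-fold (edgeR adjusted p = 0.027; alternatives gave 0.0012 to 0.13) on 23 to 65 counts per library. Ddah2 no longer passed when any 1 library was left out, except IL-4 replicate 1 and IL-4+CGRP replicate 2. Of this list Otc, Cps1, Agmat and Padi6 were at 0 counts in all 6 libraries.

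Among nitric oxide synthases, their cofactor enzymes and the nitric oxide receptor, 0 of 11 tested genes rose and 1 fell. The shares of all tested genes were 2.32% higher and 1.54% lower. Nostrin, an adaptor protein that traffics the endothelial nitric oxide synthase, went from 16.8, 17.5 and 19.1 to 13.9, 12.7 and 13.7 CPM, 1.32-fold lower (edgeR adjusted p = 0.030; alternatives gave 0.0044 to 0.16). Nostrin no longer passed when any 1 library but IL-4+CGRP replicate 2 was left out. Of 5 tested polyamine regulators, oxidases and copies, 1 rose and 0 fell, beside the same shares of all tested genes. Smox, the oxidase that turns spermine back to spermidine, went from 46.5, 44.1 and 43.5 to 51.9, 58.5 and 51.9 CPM, 1.21-fold higher (edgeR adjusted p = 0.041; alternatives gave 0.0015 to 0.21). Smox, too, no longer passed when any 1 library other than IL-4+CGRP replicate 2 was left out, nor by DESeq2, limma-voom or edgeR without robust dispersions. Of the 5 pathway genes that passed, Gatm alone did so in all 17 alternatives.

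In the other 3 lists 0 genes passed the edgeR test, and at an unadjusted p below 0.05 the counts were 0 of 5, 1 of 10 and 3 of 6, against 15.8% of all tested genes; DESeq2 and limma-voom called 0 in each. Among genes that turn ornithine to proline and glutamate, Oat (ornithine aminotransferase) averaged 74.3 ± 2.47 CPM with IL-4 and 68.9 ± 0.221 CPM with IL-4+CGRP (SD, n = 3), with an edgeR adjusted p = 0.33. Aldh4a1, which makes glutamate, averaged 30.1 ± 0.453 and 27.3 ± 1.33 CPM (SD, n = 3), with an edgeR adjusted p = 0.35. In the methionine cycle and salvage, which recovers the by-product of polyamine synthesis, Enoph1 and Mat2b had the smallest p-values. Their log2 fold changes were -0.20 (edgeR adjusted p = 0.29) and -0.13 (edgeR adjusted p = 0.34). Mat2b passed as lower without IL-4+CGRP replicate 2 (edgeR adjusted p = 0.045), where 7.04% of all tested genes were lower. It also passed without that library and IL-4 replicate 1 together (edgeR adjusted p = 0.048), where 8.88% were lower. In polyamine transport and hypusine synthesis the smallest p-values were those of Eif5a, the translation factor that carries the spermidine-derived residue hypusine, and Dhps, the enzyme that begins its synthesis. Eif5a measured 398, 370 and 372 CPM with IL-4 and 297, 363 and 299 CPM with IL-4+CGRP, a log2 fold change of -0.25 ± 0.08 (SE; edgeR adjusted p = 0.13). IL-4+CGRP replicate 2 was again the nearest to the IL-4 libraries, and without it Eif5a passed as lower at -0.35 (edgeR adjusted p = 3.6e-05; alternatives gave 1.5e-07 to 0.38). The fit without that library called 7.04% of all tested genes lower.

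**Figure D4:**
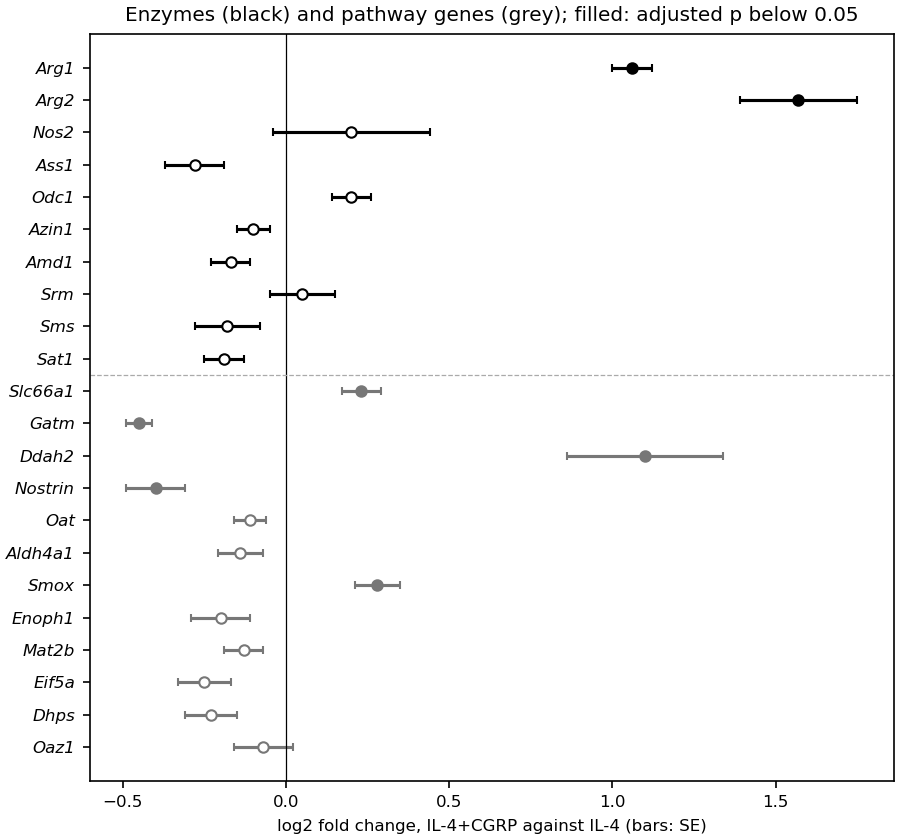
Log2 fold change of IL-4+CGRP against IL-4 (horizontal axis) with its SE for the 10 genes (black) and for the pathway genes named in the text (grey), filled where the edgeR adjusted p was below 0.05. Arg2, Ddah2 and Arg1 have the largest values, at 1.57, 1.10 and 1.06, and Gatm the lowest, at -0.45.

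The arginase calls held in all 17 alternatives, among them other scalings and filters, DESeq2, limma-voom and each library left out in turn. Without IL-4+CGRP replicate 2, 2 of the 10 genes were called higher (Arg1 and Arg2) and 2 lower (Ass1 and Sat1), where 6.78% of all tested genes were higher and 7.04% lower. With no count filter the members called were 3 higher (with Odc1) and 2 lower (Ass1 and Sat1), against 2.46% and 1.83% of all genes tested there. Those counts were the same when IL-4 replicate 1 and IL-4+CGRP replicate 2, whose deviations from their group means correlated at 0.287, were both left out, against 7.97% higher and 8.88% lower of all tested genes.

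**Figure D5:**
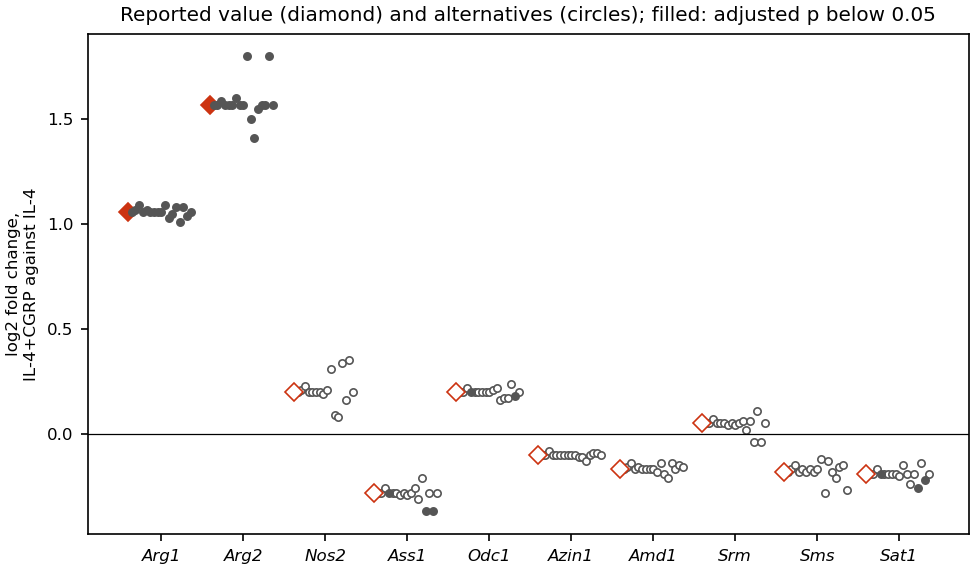
Log2 fold change of IL-4+CGRP against IL-4 for the 10 genes as reported (red diamond) and under each alternative (circles), filled where the adjusted p was below 0.05. Arg1 stays between 1.01 and 1.09 and Arg2 between 1.41 and 1.80, always filled, while Ass1, Odc1 and Sat1 are filled under 2 or 3 alternatives each.

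Total counts ran from 20088895 to 24060444 per library. On the first principal component of log2 CPM (37.6% of variance) IL-4+CGRP replicate 2 lay at -0.17, between the IL-4 libraries (-25.97 to -11.22) and the other IL-4+CGRP libraries (21.98 and 27.05), yet its Arg1 level, 212 CPM, was the highest of the 6. The 8 macrophage markers, led by Lyz2, summed to 13625 to 13852 CPM with IL-4 and 13839 to 14106 CPM with IL-4+CGRP, and Itgam and Cd14 rose. Summed levels of 8 neutrophil markers (37.1 to 45.9 and 34.3 to 45.1 CPM, Ly6g at 0) and 7 dendritic cell markers (564 to 757 and 521 to 786 CPM, mostly Bst2, with Ccr7 higher and Siglech lower) overlapped between the groups. Those of 6 stromal markers (42.7 to 45.9 and 47.4 to 54.0 CPM), 5 endothelial markers (138 to 157 and 179 to 199.9 CPM, Pecam1 and Kdr higher) and 5 erythroid markers (239 to 268 and 278 to 299.8 CPM, nearly all Tfrc, with Hbb-bs at 0) were higher in every IL-4+CGRP library. By the edgeR test 2 of 8 tested macrophage and 2 of 4 tested endothelial markers were higher. Of 6 tested dendritic cell markers 1 was higher and 1 lower. Of the tested stromal and erythroid markers 0 of 5 and 0 of 1 passed. Among all tested genes 2.32% were higher and 1.54% lower, so 0 calls in lists this short is no result about them. The sums were not tested. Those of 6 mast cell and basophil markers (3.57 to 3.997 and 2.88 to 3.38 CPM, Mcpt4 at 0), 4 eosinophil markers (3.38 to 4.76 and 2.16 to 3.14 CPM) and 7 lymphoid markers (22.4 to 23.3 and 19.3 to 22.4 CPM) were at or below the lowest IL-4 sum. The part of these in the arginase result was not tested, and in bulk RNA a change in the share of cells that express a gene and a change in RNA per cell cannot be told apart.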

How the data were processed

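Per the labels, RNA was from bone marrow-derived macrophages in 2 groups of 3 libraries, named here by treatment and replicate number. The authors deposited estimated counts (expected counts) per gene, of which 23.3% to 26.6% above 0 are not whole (tolerance 1e-06). The submitters' processing notes name fastp, HISAT2, StringTie and build GRCm39; no source used here gives versions, annotation, the counting step or its use of strand. Counts were rounded before testing. Gene lengths from the same table gave levels per kilobase.

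Genes were filtered with filterByExpr (13260 kept, 99.91% of counts), scaled with TMM, and compared by edgeR 4.0.16 in R 4.3.3 (quasi-likelihood F test with robust dispersions and no covariates, two-sided). P-values were adjusted by Benjamini-Hochberg over all tested genes, with a threshold of 0.05. The SE was derived from the log2 fold change and its F statistic. Ratios were compared by exact permutation (scipy 1.17.1). The fit was tested on simulated data. No 2 libraries of a group agreed within counting noise (chi-square over its degrees of freedom, 3.03 to 22.2).

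The 10 genes, the pathway and marker lists were chosen with earlier results of these data known. Genes named are all 10, Amd2 and Oaz1, and in each of 7 pathway lists up to 4 past the threshold with the smallest p, or the 2 smallest where none passed. Near-identical copies were found with BLAST+ among GENCODE M21 transcripts (at least 95% identity over at least 200 bases), and promoter sequences are from RefSeq. A comparison of the arginase sequences is not reported here. Alternatives were other scalings and filters, DESeq2 1.42.0, limma-voom (limma 3.58.1), edgeR without robust dispersions, a block for replicate number, and left-out libraries. Summing copies was added after seeing the data.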

Additional observations from a re-analysis of the deposited data

How the results depend on the processing

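Arg1, Arg2 and Gatm kept their direction and their call in all 17 alternatives. Members called lower were 0 as reported but 2 (Ass1 and Sat1) with no count filter, where 1.83% of all genes tested there were lower. They were also 2 without the pair of IL-4 replicate 1 and IL-4+CGRP replicate 2 (8.88%). With 1 library left out they were 0 to 2, with 2 only without IL-4+CGRP replicate 2 (7.04%). Members called higher were 3, with Odc1 added, with no count filter (2.46% of all genes tested there) and without that pair of libraries (7.97%). Of the pathway genes, 3 were called higher as reported, 1 under DESeq2 (2.10% of all genes tested there), 1 under limma-voom (1.98%), 6 without that pair (7.97%) and 0 to 5 with 1 library left out, with 5 without IL-4+CGRP replicate 2 (6.78%); 2 were called lower as reported, 4 with no count filter (1.83%), 6 without that pair (8.88%) and 1 to 5 with 1 library left out, with 5 without IL-4+CGRP replicate 2 (7.04%). The cause was not tested. The log2 ratio of Arg2 to Arg1 ran from 0.39 to 0.71 with 1 library left out, that of Odc1 to Sat1 from 0.36 to 0.43, and that of Azin1 to Oaz1 from -0.09 to 0.07, turning sign when IL-4 replicate 3 (0.01) or IL-4+CGRP replicate 2 (0.07) was left out. The log2 fold change of Srm ran from -0.04 to 0.11 with 1 library left out and was -0.04 without that pair, and that of Oaz1 ran from -0.18 to 0.00, its sign turning without IL-4 replicate 1. The labels do not say whether same-numbered libraries were paired. Their deviations from the group means correlated at -0.188, -0.182 and 0.13, and 3 libraries a group are too few to settle it. With the replicate number as a block no member's call changed, 0 pathway genes were called higher (1.33% of all tested genes) and 1 lower (Gatm; 0.649%), and the log2 ratios differed by 0.53, 0.39 and -0.03. The exact permutation test of the ratios cannot give a p below 0.1 with 3 libraries a group, and Nos2, Arg2 and Ddah2 are limited by counts. With a mean count of at least 50, Nos2 and Ddah2 were not tested.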

Other observations

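The deposited table assigns 54 genes to the KEGG map of arginine and proline metabolism and 20 to that of arginine biosynthesis, lists that were looked at after the results above were known. Outside the 10 genes, 25 and 9 of these were tested, of which 1 was higher and 2 were lower in the first map, and 1 was higher and 0 lower in the second, where 2.32% of all tested genes were higher and 1.54% lower. Besides Gatm and Smox these were Ckb and Glul. Ckb, the brain-type creatine kinase, which buffers ATP with creatine, measured 163, 157 and 160.1 CPM with IL-4 and 115, 128 and 116 CPM with IL-4+CGRP. It was 1.34-fold lower (log2 fold change -0.42 ± 0.06, SE; edgeR adjusted p = 0.0014). Glul, glutamine synthetase, measured 195, 194 and 189.8 CPM with IL-4 and 236, 251 and 238 CPM with IL-4+CGRP. It was 1.25-fold higher, with an edgeR adjusted p = 0.0026. Groups did not overlap for either gene.

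Slc7a2, a cationic amino acid transporter that brings arginine into macrophages, was just outside the threshold and is named here after its values were seen. It measured 235, 232 and 235 CPM with IL-4 and 275, 254 and 275 CPM with IL-4+CGRP, and the log2 fold change of 0.20 ± 0.05 (SE) had an edgeR adjusted p = 0.0502. All IL-4+CGRP libraries were above all IL-4 libraries. Slc7a2 passed when edgeR used any of the 3 other scalings or either other count filter, without IL-4+CGRP replicate 2 and without that library and IL-4 replicate 1 together. It did not pass under DESeq2, limma-voom, edgeR without robust dispersions, the replicate block, summed copies or with any other single library left out.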
